A study of Sus scrofa with 5 samples.

Results

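The miR-424, miR-503, miR-450 and miR-542 cluster was described across the 5 small RNA libraries of pig cells. Its members were all mature names of the reported miRNA table that belong to miR-424 (also called miR-322), miR-503, miR-450a, miR-450b, miR-450c or miR-542, with or without an arm ending. The table held 10 such names, from 6 hairpin precursors, among 411 names in all, of which 327 had a read in at least 1 library. Each member occupied 1 row of the table, and none was listed under the name miR-322.

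BL_1 and BL_2 were separate pools of day 7 blastocysts (BLs), which had developed from oocytes activated by an electric pulse without sperm and been cultured in PZM3 medium. The ES-like cells were an embryonic stem cell-like line derived from in vitro produced blastocysts and grown on mitomycin-C-treated mouse embryonic fibroblasts with stem cell factor and basic fibroblast growth factor. Whether these mouse cells added reads to the ES-like library was not tested. PEBs were embryoid bodies, made from clumps of those ES-like cells in hanging drops without the cytokines. PFFs were fibroblasts of fetuses of mixed breed, from which the head, limbs and internal organs had been removed. The study's sample sheet lists the ES-like cells and PEBs as XX and the PFFs as XY. BLs are listed as mixed, although embryos that developed without sperm received no Y chromosome. With 1 library for each cell type but the BLs, differences among the cultured cells have no replicate check, and between PFFs and the other cultured cells cell type and sex chromosomes cannot be told apart.

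In mammals these hairpins lie close together on the X chromosome and are thought to be cut from shared primary transcripts. A hairpin gives a 5p and a 3p arm, and usually 1 arm is kept in the Argonaute protein while the other is lost. miR-424-5p and miR-503 carry a seed closely related to that of miR-15 and miR-16, repress cell cycle genes such as cyclin D1 and CDC25A and are known from differentiating muscle cells. In the pig gene table of RefSeq (Sscrofa11.1), 4 of the 6 precursors were found, and they followed each other on the X chromosome in the order MIR450B, MIR450A, MIR450C and MIR542 between HPRT1 and PLAC1, with no other listed gene among them. The deposited files use another build, Sscrofa10.2, and no coordinates were taken from the RefSeq table.

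Mature miRNA reads numbered from 113743 in BL_1 to 27071931 in PFFs. Levels are given as reads per 1000000 mature miRNA reads of the library (RPM), so that 1 read was worth 8.79 RPM in BL_1 and 0.0369 RPM in PFFs, and a name without a read could still be present at up to 26.4 RPM in BL_1, 1.08 RPM in BL_2 and 0.111 RPM in PFFs (a limit of 3 reads). The study reports that miRNAs made up a much smaller share of small RNA reads in both BL libraries than in any cultured library. RPM does not show that difference, and levels per small RNA read were not computed. Intervals below are 95% intervals and cover counting error only. The study's summary sheet lists the mature read totals of ES-like cells and PFFs the other way round from the columns of the count table. The columns were therefore assigned by their names alone. Marker miRNAs were read against these labels. Of the 8 fibroblast and mesenchymal markers (among them miR-143-3p, miR-199a-3p, miR-214 and miR-21), the summed level was 707180 RPM in PFFs, 322065 in PEBs, 213967 in ES-like cells and from 38868 to 70223 in BLs. miR-21 alone made up 52.3% of the reads of PFFs and carried most of that sum, while miR-199a-3p (52517 RPM in PFFs, 80420 in PEBs), miR-199a-5p and miR-214 were higher in PEBs than in PFFs in RPM, which turned with TMM scaling. Each of the 8 was higher in every cultured library than in both BL libraries. The 3 pluripotency and early embryo markers in the table (miR-371-5p, miR-363 and miR-20b, of 8 on the list) summed to 325145 and 296549 RPM in BL_1 and BL_2, and to 48565, 12136 and 321 RPM in the ES-like cells, PEBs and PFFs. The fall from BLs to ES-like cells came from miR-371-5p, at 324635 and 296148 RPM in BL_1 and BL_2 but 30.9 in ES-like cells. The other 2 were higher in ES-like cells and PEBs than in BLs and lowest in PFFs in RPM, with miR-363 at 422 and 331 RPM in BLs against 41258 in the ES-like line and 10404 in its PEBs and 280.0 in PFFs, and miR-20b at 87.9 and 70.4 against 7277, 1731 and 40.9.

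The cluster was a small part of each library and differed in make-up between the embryos and the cultured cells. The 10 members together reached 1046 and 1026 RPM in the BL libraries and 2130, 2444 and 4526 RPM in the ES-like cells, PEBs and PFFs. Reads of miR-424 and miR-503 were 80.7% of the members' reads in BL_1 (Wilson interval 72.7 to 86.8%) and 80.1% in BL_2 (78.6 to 81.5%). They were 13.1% in ES-like cells (12.6 to 13.7%), 26.5% in PEBs (26.1 to 26.9%) and 5.09% in PFFs (4.97 to 5.22%). Both BL libraries thus lay above all 3 cultured libraries. The mean was 80.4% ± 0.401 in BLs (SD, n = 2) and 14.9% ± 10.8 in cultured cells (SD, n = 3), a difference of 65.5 percentage points. The exact permutation test gave p = 0.2 (two-sided, the one-sided p doubled), the smallest value it can give for 2 against 3 libraries. This grouping of the members and its test were not among the planned comparisons. Without PEBs, the highest of the cultured libraries, the difference was 71.3 percentage points. A share within a library does not depend on how libraries are scaled to each other.

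**Figure D1:**
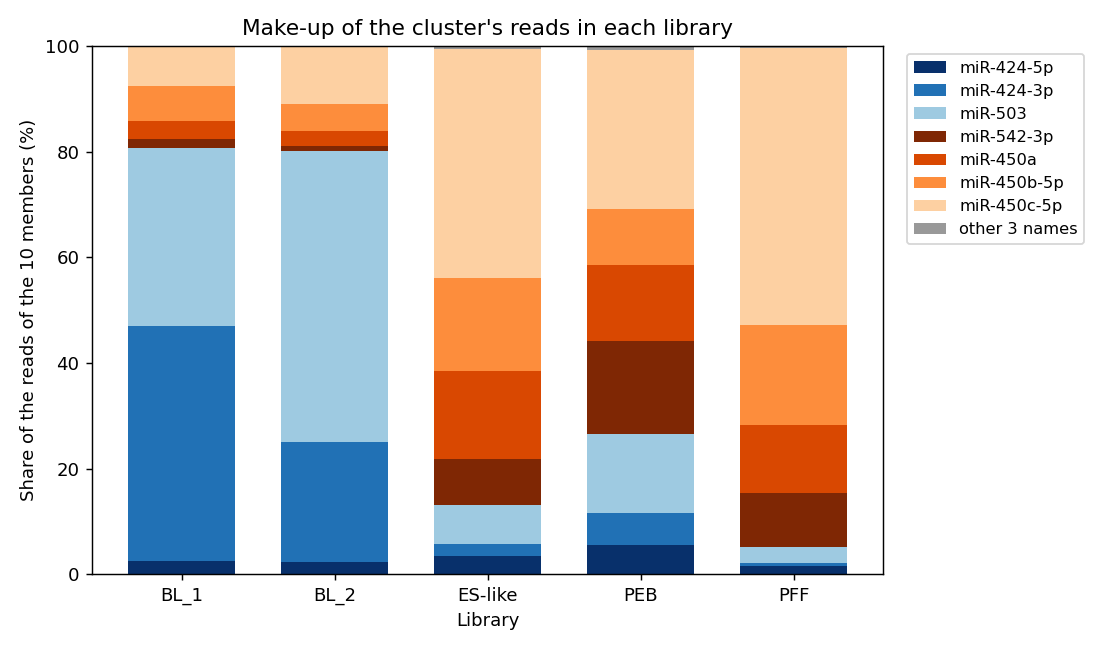
Share of the reads of the 10 members (%, y axis) taken by each mature miRNA in each library (x axis). The blue parts, miR-424 and miR-503, take 80.7% and 80.1% of the bars of BL_1 and BL_2 and from 5.09% to 26.5% of those of the cultured cells, where miR-450c-5p is the largest single part.

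In RPM, the sum of the miR-424 and miR-503 names, most of it miR-424-3p and miR-503 in BLs, and the sum of the miR-450 and miR-542 names went different ways. The former summed to 844 and 822 RPM in BL_1 and BL_2, 647 in PEBs, 279 in ES-like cells and 230 in PFFs. The latter summed to 202 and 204 RPM in BL_1 and BL_2, but to 1851 in the ES-like line, 1797 in PEBs and 4295 in PFFs. Lower levels in whole samples cannot tell fewer cells that make a miRNA from less miRNA per cell.

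miR-424-5p, the arm with the seed related to miR-16, was low in BLs. Its 3 reads in BL_1 and 64 in BL_2 equalled 26.4 and 23.0 RPM. The ES-like cells had 472 reads (74.1 RPM), the PEBs 2150 (136 RPM) and the PFFs 1980 (73.1 RPM). Both BL libraries lay below all cultured libraries, although the interval of BL_1 (5.44 to 77.1 RPM) reached the levels of ES-like cells and PFFs. Between ES-like cells and PFFs the levels differed by less than their counting error (ratio 0.987, interval 0.893 to 1.09), and with the library scaling of edgeR's TMM method the level of PFFs was 2.60 times that of ES-like cells and about equal to that of PEBs (1.01 times).

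miR-424-3p, from the opposite side of the same hairpin, showed the reverse. It had 53 reads in BL_1 and 651 in BL_2, or 466 and 234 RPM, and 316, 2371 and 721 reads in ES-like cells, PEBs and PFFs, or 49.6, 150 and 26.6 RPM. It was the single member with both BL libraries above all cultured libraries in RPM. That order is per mature miRNA read, and it may differ per small RNA read, where miRNAs are a smaller share in BLs. Its mean of 350.0 RPM in BLs (SD 164, n = 2) was 2.34 times the level in PEBs and 4.65 times the mean of the 3 cultured libraries. The BL libraries differed from each other by 1.99 times (interval 1.48 to 2.64), more than counting error. With BL_2 alone, the level in BLs was 1.56 times that in PEBs.

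miR-503, a relative of miR-424-5p by seed, had 40 and 1572 reads in the BL libraries, and 993, 5741 and 3537 in the ES-like cells, PEBs and PFFs. These equalled 352, 565, 156, 362 and 131 RPM. The groups overlapped, since PEBs lay between the BL libraries. In both TMM-scaled values and values scaled by DESeq2 size factors, both BL libraries lay above all cultured libraries. BL_1 was at 0.622 times the level of BL_2 (interval 0.443 to 0.851), the opposite direction from miR-424-3p, so the members' order within the cluster differed between the BL libraries.

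miR-542-3p, which has been described as a repressor of survivin, had 2 reads in BL_1 and 26 in BL_2, or 17.6 and 9.35 RPM. The cultured cells had many more, with 1193 in the ES-like line, 6872 in its PEBs and 12628 in PFFs, or 187, 434 and 466 RPM. The lowest cultured library was 10.6 times as high as the higher BL library, BL_1, whose 2 reads have an interval of 2.13 to 63.5 RPM. The opposite arm, miR-542-5p, was rare everywhere, with 0 and 1 reads in the BL libraries and 10, 19 and 82 in the ES-like cells, PEBs and PFFs, or at most 3.03 RPM.

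miR-450a, listed without an arm ending, and the 5p names of miR-450b and miR-450c made up most of the cluster in cultured cells. miR-450c-5p, the most abundant member in cultured cells, had 9 and 311 reads in the BL libraries, whereas the ES-like cells had 5895, the PEBs 11621 and the PFFs 64148. In RPM it stood at 79.1 and 112 in BLs and at 925, 733 and 2370 in the ES-like cells, PEBs and PFFs. miR-450b-5p, described as a regulator of PAX6 in the corneal epithelium, had 8, 146, 2393, 4144 and 23188 reads in BL_1, BL_2, ES-like cells, PEBs and PFFs. Its levels were 70.3, 52.5, 376, 261 and 857 RPM. miR-450a had 4, 82, 2243, 5517 and 15839 reads, or 35.2, 29.5, 352, 348 and 585 RPM. For all 3 names the order in RPM was PFFs first, then ES-like cells, then PEBs, then BLs, although ES-like cells and PEBs did not differ beyond counting error in miR-450a. The gap was 3.72 to 9.90 times between the higher BL library and the lowest cultured library. The names share much of their sequence, and how reads that match more than 1 of them were assigned is not given in the sources used here. Their sum was 185 and 194 RPM in BLs, and 1653, 1343 and 3811 RPM in the ES-like cells, PEBs and PFFs.

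The 3p arms of the miR-450 hairpins were rare. miR-450c-3p had 0 and 2 reads in the BL libraries and 51, 133 and 328 in the ES-like cells, PEBs and PFFs, or up to 12.1 RPM. miR-450b-3p had no read in either BL library, but 10, 173 and 68 reads in the ES-like cells, PEBs and PFFs. Its 10.9 RPM in PEBs was at least 10.1 times as high as BL_2 allows (3 reads), while the limit of BL_1 lay above every cultured level. The same held for the limit of BL_1 for miR-542-5p and miR-450c-3p, so these 3 names say nothing of a difference between BL_1 and cultured cells.

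**Figure D2:**
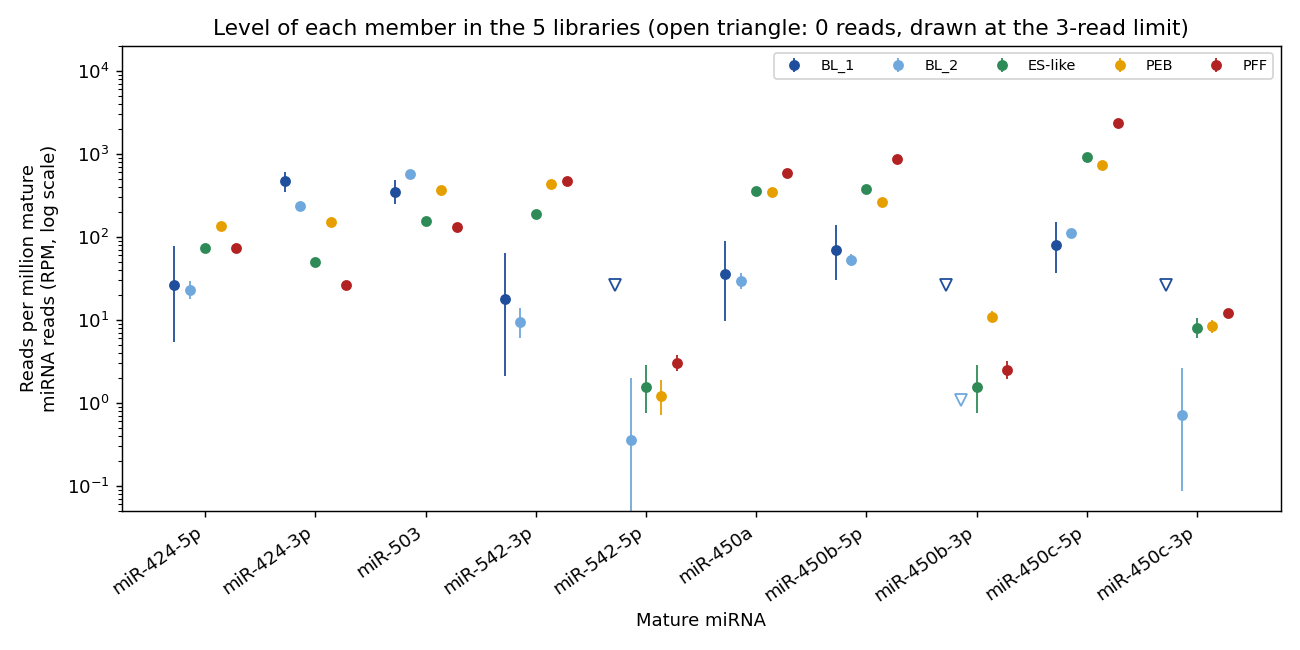
Level of each member (x axis) in RPM on a log scale (y axis) in the 5 libraries, with exact Poisson 95% intervals as bars and open triangles at the 3-read limit for names without reads. miR-424-3p is highest in BL_1 (466 RPM) and BL_2 (234 RPM), whereas miR-542-3p, miR-450a, miR-450b-5p and miR-450c-5p lie lowest in both BL libraries.

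Embryos were compared with cultured cells by edgeR's quasi-likelihood test (BL_1 and BL_2 against ES-like cells, PEBs and PFFs) over 279 miRNAs, each seen in 3 or more libraries with over 5 reads. The cultured libraries are of different cell types, so their spread includes such differences. Of the 10 members, miR-542-5p, miR-450b-3p and miR-450c-3p passed this filter through the cultured libraries alone and are left out of the counts of direction. Of the 7 with reads in both BL libraries, 5 were fitted lower and 2 higher in embryos. Over all 279 miRNAs tested, which include names without reads in BLs, 65.6% were fitted lower, and the median log2 fold change was -1.23. One member, miR-542-3p, passed the threshold of 0.05 after Benjamini-Hochberg adjustment, against 11.8% of all miRNAs tested (5.38% lower and 6.45% higher in embryos). That is 1 of the 10 members tested, a share near the background. The log2 fold change of miR-542-3p was -5.05 (standard error 1.21, adjusted p = 0.0463 from edgeR), and it was lower in 2 of 2 BL libraries. The call was lost in the same test without BL_1 or BL_2, which left a lone BL library, and without PEBs (adjusted p = 0.106). The log2 fold change stayed about as large, at -4.61 without BL_1, -4.50 without BL_2 and -5.06 without PEBs. Over the alternatives that kept both BL libraries, the adjusted p ranged from 0.000156 in DESeq2 to 0.106 in edgeR without PEBs. miR-450a (-3.90, standard error 1.04, adjusted p = 0.0573) and miR-450c-5p (-4.06, standard error 1.26, adjusted p = 0.0696) missed the threshold in edgeR, and miR-450a passed it with both other scalings, with DESeq2 and limma, without the filter, with the largest precursor row and without PFFs (adjusted p from 0.00153 to 0.252 over all alternatives). miR-450c-5p passed with total counts (0.0389) and DESeq2 (0.00213), in a range of adjusted p up to 0.323. miR-450b-5p (edgeR adjusted p = 0.100) passed with DESeq2 (adjusted p = 0.0190), in a range up to 0.349. miR-424-3p had a log2 fold change of 2.34 in edgeR (standard error 0.87, adjusted p = 0.108) and passed with DESeq2 (adjusted p = 0.0159) and without PFFs (0.0448), in a range of 0.0159 to 0.219. miR-424-5p (-1.90, adjusted p = 0.145) and miR-503 (1.21, adjusted p = 0.266) did not pass in edgeR. An unadjusted p under 0.05 was reached by 5 of the 7 members with reads in both BL libraries. It was reached by 40.1% of all miRNAs tested, which include names without reads in BLs, so the shares are not set against each other.

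Without a test, both BL libraries lay below all 3 cultured libraries for 5 of these 7 members in RPM and above for 1. With TMM scaling 5 lay below and 2 above. Over all miRNAs tested the shares were 41.9% below and 21.5% above in RPM and 41.6% and 21.5% with TMM, again with names that lack reads in BLs among them. Ratios of RPM with the BL mean as shared denominator were formed for the ES-like line, PEBs and PFFs. In all 3, 5 of the 7 (miR-424-5p, miR-542-3p, miR-450a, miR-450b-5p and miR-450c-5p) were more than 2-fold higher. Among all miRNAs tested, 55.6%, 54.8% and 40.1% were, but these include names without reads in BLs and are not a like background for the 7. In the ES-like line miR-424-5p fell to 1.82 times with TMM and 1.90 times with DESeq2 size factors. The 3 ratios restate the order above and are given for their size. miR-424-3p was more than 2-fold lower in all 3, and miR-503 in ES-like cells and PFFs. Of all miRNAs tested, again with names that lack reads in BLs, 20.8%, 23.3% and 35.1% were more than 2-fold lower in the ES-like line, PEBs and PFFs. The 8 fibroblast and mesenchymal markers were higher in every cultured library than in both BL libraries in RPM. So were miR-542-3p, miR-450a, miR-450b-5p and miR-450c-5p, and only miR-542-3p among these members passed in edgeR. Of these 8 markers, 6 were lower in embryos in edgeR and 0 were higher, and miR-145-5p, miR-199b-5p and miR-214 had no read in BL_1. The epithelial marker miR-205, like miR-424-3p, was higher in both BL libraries than in every cultured library, while miR-429 was highest in ES-like cells. The part of these markers in the levels of the members was not tested.

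The pluripotent libraries (BL_1, BL_2 and ES-like cells) were compared with the differentiated ones (PEBs and PFFs) in the same way. No miRNA passed in edgeR (0% of those tested, with 29 or 10.4% at an unadjusted p under 0.05, 1 of them a member), limma called 0, and DESeq2 called 14, of which 0 were members. miR-542-3p had the smallest p among the members, with a log2 fold change of -3.54 (standard error 1.35, unadjusted p = 0.0356, adjusted p = 0.381 in edgeR). Without ES-like cells it passed (-5.55, adjusted p = 0.0396), where the comparison is of BLs with PEBs and PFFs. ES-like cells had 13.9 times the mean BL level of miR-542-3p and 10.9 times that of miR-450a in RPM, or 8.65 and 6.62 times with TMM, where the median log2 ratio of all miRNAs tested was 1.36 in RPM and 0.59 with TMM.

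The rule of the study was a level more than 2-fold above each other cell type, with BLs as the mean of both libraries. It was applied here to RPM values, while the study normalized levels by Tag Count Comparison. miR-424-3p passed for BLs, 1 of 10 members against 18.7% of the 327 miRNAs with a read, and did not pass without BL_1, where it was at 1.56 times its level in PEBs. miR-450b-3p passed for PEBs, at 4.35 times its level in PFFs, 1 of 10 against 7.34%, but its part against BLs rests on 0 reads there, and its level in PEBs lay under the limit of BL_1. miR-450b-5p and miR-450c-5p passed for PFFs, at 2.28 and 2.56 times their level in ES-like cells, 2 of 10 against 7.95%. No member passed for ES-like cells, against 12.5%. With TMM scaling 6 members passed for PFFs, among 53 of the 327 miRNAs, and 5 among 40 did once the top miRNA of every library was left out of the RPM, against 2 among 26 in RPM. Both counts include miR-542-5p and miR-450c-3p, whose levels in PFFs lay under the limit of BL_1.

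The forming of embryoid bodies was compared with its source cells as PEBs over ES-like cells, 1 library each. The median ratio over all miRNAs tested was -0.22 on the log2 scale in RPM and 0.27 with TMM. Of 10 members, 4 were more than 2-fold higher in PEBs in RPM, against 20.8% of all miRNAs tested, and 0 were more than 2-fold lower, against 23.7%. With TMM these were 5 and 0, against 30.8% and 12.9%. miR-424-3p was 3.02 times as high (interval 2.68 to 3.40), miR-503 2.32 times (2.17 to 2.49) and miR-542-3p 2.32 times (2.18 to 2.46). miR-450b-3p was 6.96 times as high (3.69 to 14.8), from 10 reads in ES-like cells. miR-424-5p was 1.83 times as high (1.66 to 2.03). miR-450a, miR-450b-5p and miR-450c-5p stood apart from these. miR-450b-5p was at 0.696 times its level in ES-like cells (0.662 to 0.732). miR-450c-5p was at 0.793 times (0.768 to 0.818) and miR-450a at 0.989 times (0.941 to 1.04), and both lay above ES-like cells with TMM, at 1.12 and 1.39 times. Within the cluster, where scaling plays no part, miR-542-3p had 0.202 reads for each read of miR-450c-5p in the ES-like line but 0.591 in PEBs, and 0.197 in PFFs.

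Fetal fibroblasts were compared with ES-like cells, also 1 library each. Here the median over all miRNAs tested was -1.15 on the log2 scale in RPM and 0.25 with TMM, so the scaling decided directions. In RPM, 3 of 10 members were more than 2-fold higher in PFFs, against 16.1% of all miRNAs tested, and 0 were more than 2-fold lower, against 53%. With TMM, 9 of 10 were more than 2-fold higher, against 37.3%. miR-450c-5p was 2.56 times as high (interval 2.49 to 2.63), miR-542-3p 2.49 times (2.35 to 2.65) and miR-450b-5p 2.28 times (2.19 to 2.38). miR-424-3p was at 0.537 times its level in ES-like cells (0.470 to 0.615) and miR-503 at 0.838 times (0.781 to 0.900), and with TMM these turned to 1.41 and 2.21 times. The miR-424 and miR-503 names lay below the other members, an order that no scaling of the libraries can change.

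PFFs over PEBs split the members. The median over all miRNAs tested was -0.79 on the log2 scale in RPM and 0.11 with TMM. In RPM, miR-450b-5p was 3.28 times as high in PFFs (interval 3.17 to 3.39) and miR-450c-5p 3.23 times (3.17 to 3.30), while miR-424-3p was at 0.178 times (0.164 to 0.194) and miR-503 at 0.361 times (0.346 to 0.376). Counting all members, 3 of 10 were more than 2-fold higher, against 14% of all miRNAs tested, and 3 were more than 2-fold lower, against 45.5%. With TMM these were 6 and 2, against 29.0% and 33.0%. miR-542-3p was at 1.08 times its level in PEBs (1.04 to 1.11) in RPM and at 2.01 times with TMM.

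**Figure D3:**
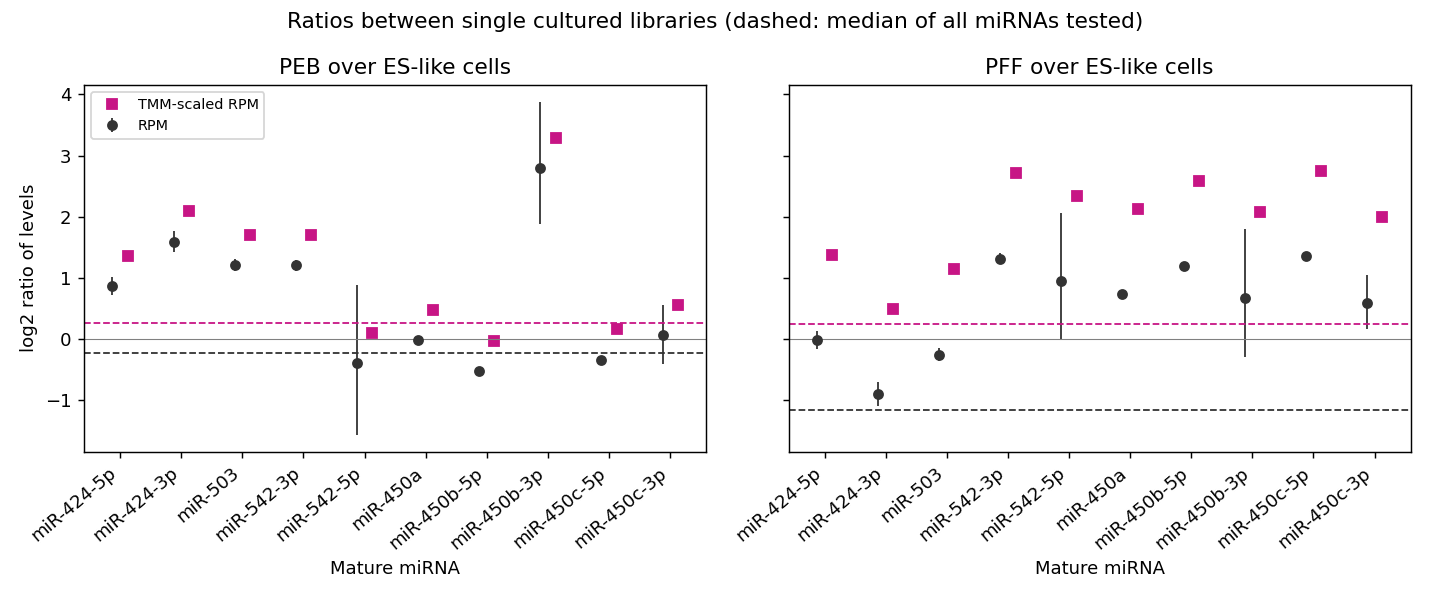
log2 ratio of the level in PEBs (left) or PFFs (right) to that in ES-like cells (y axis) for each member (x axis), in RPM with 95% intervals for counting error (black) and TMM-scaled (pink), with dashed lines at the median of all miRNAs tested. In PEBs miR-424-3p, miR-503 and miR-542-3p lie above the dashed line of their scaling while miR-450b-5p lies below it, and in PFFs the miR-424 and miR-503 names lie lowest.

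The arms of miR-424 were then compared within each library, which needs no scaling between libraries. The 3p arm held 94.6% of the reads of both arms in BL_1 (53 of 56 reads, Wilson interval 85.4 to 98.2%) and 91.0% in BL_2 (651 of 715, 88.7 to 92.9%). It held 40.1% in ES-like cells (316 of 788, 36.7 to 43.6%), 52.4% in PEBs (2371 of 4521, 51.0 to 53.9%) and 26.7% in PFFs (721 of 2701, 25.1 to 28.4%). The 3p arm thus led by 17.7 reads to 1 in BL_1 and by 651 reads to 64 in BL_2, whereas the arms were near parity in PEBs and the 5p arm led in ES-like cells and PFFs. The mean log2 ratio of 3p to 5p reads was 3.74 ± 0.56 in BLs (SD, n = 2) and -0.63 ± 0.80 in cultured cells (SD, n = 3). The difference of 4.38 had p = 0.2 in the exact permutation test (two-sided, the one-sided p doubled), again the smallest value this test can give. It was 3.98 without BL_1 and 4.77 without BL_2.

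For comparison, 27 hairpins named with both arms had at least 10 reads in every library and reads of both arms in each. Both BL libraries lay above all cultured libraries in this ratio for 12 of them (44.4%) and below for 7 (25.9%), so separate groups were common. miR-424 had the largest difference in size among the 27, from 3 reads of its 5p arm in BL_1, followed by miR-361 with 3.24 and miR-365 with -2.93.

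**Figure D4:**
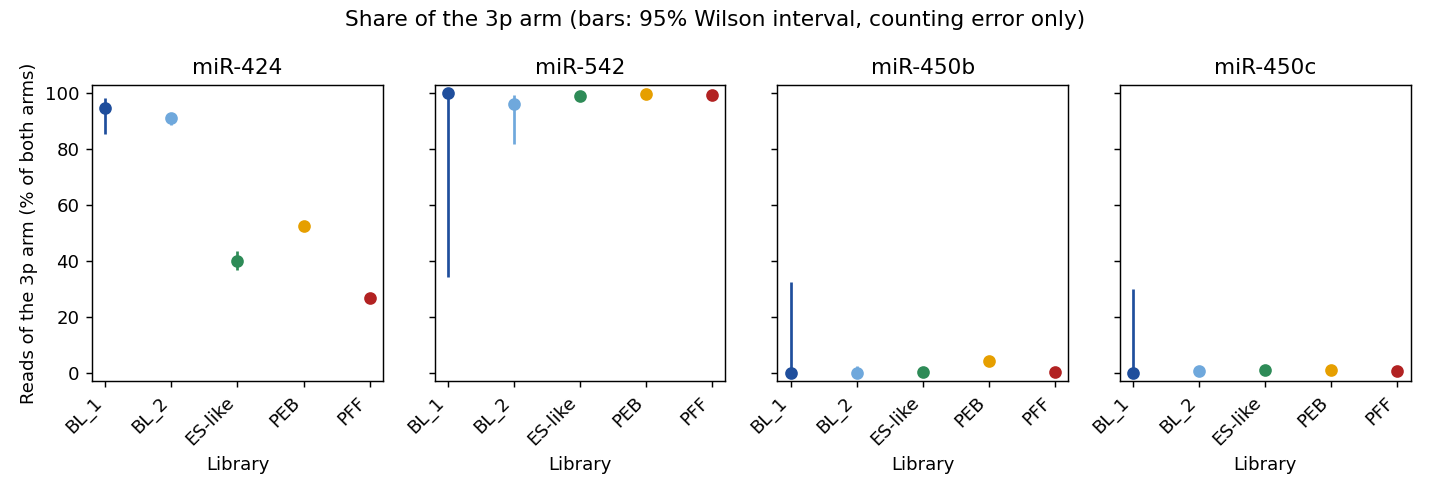
Share of the 3p arm in the reads of both arms (%, y axis) in each library (x axis) for the 4 hairpins with both arms named, with 95% Wilson intervals. For miR-424 the share is 94.6% and 91.0% in BL_1 and BL_2 and from 26.7% to 52.4% in cultured cells, while the other 3 hairpins keep the same leading arm in all 5 libraries.

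The other hairpins had the same leading arm throughout. The 3p arm of miR-542 held 26 of 27 reads in BL_2 (96.3%) and from 99.2% to 99.7% in cultured cells. BL_1 had 2 reads of it in all. The 3p arm of miR-450c held 2 of 313 reads in BL_2 (0.639%) and from 0.509% to 1.13% in cultured cells. For miR-450b the 3p arm had 0 of 146 reads in BL_2, which allows a share of up to 2.05%, and 0.416% in ES-like cells (0.226 to 0.764%), 0.292% in PFFs (0.231 to 0.370%) and 4.01% in PEBs (3.46 to 4.63%). The share in PEBs was above those of the other cultured libraries by more than counting error.

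Agreement among the members was described by the root mean square difference between their profiles, each profile being log2(RPM + 10) over the 5 libraries less its mean. Each member was set against 272 other miRNAs with at least 10 reads in 3 or more libraries. miR-450a and miR-450c-5p were nearest to each other, with a difference of 0.38, and each of the 3 abundant miR-450 names had the other 2 among its 3 nearest. These names share much of their sequence, so their likeness may include reads counted for several names, which was not tested. The nearest of all to miR-450b-5p was miR-15a (0.40), ahead of miR-450a (0.45). miR-542-3p had miR-98 (0.28), miR-125b (0.35) and miR-145-3p (0.37) as nearest, and its first fellow member ranked 5. miR-424-5p was nearest to miR-493-5p (0.16), miR-299 (0.19) and miR-335 (0.25). miR-424-3p was nearest to miR-486 (0.55), miR-30d (0.57) and miR-92b-3p (0.59), and miR-503 to miR-187 (0.38), miR-149 (0.49) and miR-30b-3p (0.49). For miR-424-5p, miR-424-3p and miR-503 the first fellow member ranked 19, 11 and 34. In all, 2 of 10 members had another member as their nearest profile. The rare names had no member among their 3 nearest, and were nearest to miR-345-5p (miR-542-5p, 0.14), miR-24-2-5p (miR-450b-3p, 0.20) and miR-545-3p (miR-450c-3p, 0.18), on a scale where the added 10 RPM holds low levels together. Without BL_1, 4 members had another member as nearest, and without BL_2 0 did.

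Related miRNAs outside the cluster were set beside it. The miRNAs of the miR-15 and miR-16 family (miR-15a, miR-15b, miR-16, miR-195 and miR-497) summed to 237 and 420 RPM in BL_1 and BL_2, and to 1415, 734 and 923 RPM in the ES-like cells, PEBs and PFFs, and 0 of 5 passed edgeR between embryos and cultured cells. miR-503, at 352 and 565 RPM, was thus above the sum of these 5 names in both BL libraries and below it in each cultured library. The neighbouring cluster on the X chromosome (miR-106a, miR-18b, miR-20b and miR-363) summed to 536 and 417 RPM in BLs, and to 51890, 13031 and 336 RPM in the ES-like cells, PEBs and PFFs, and 0 of 4 passed. Its highest level lay in ES-like cells, whereas the miR-450 and miR-542 names together were highest in PFFs.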

How the data were processed

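The authors left out reads that were short or lacked adapters, trimmed adapters with Cutadapt 1.10, aligned with Bowtie 1.1.1 to the pig genome (Sscrofa10.2) and assigned reads to miRNAs of miRBase with miRDeep2. Versions and build are from the submitters' processing notes. The deposited table holds raw read counts for 493 pairs of mature miRNA and precursor. 1 row is repeated, and both copies entered the sum. The table of predicted miRNAs outside miRBase was not used here. Counts were summed over precursor rows and divided by the mature read total of the library. edgeR 4.0.16 (quasi-likelihood, TMM, Benjamini-Hochberg over all miRNAs tested) was the main test, and DESeq2 1.42.0 and limma 3.58.1 (log2 CPM, prior count 3) were alternatives, in R 4.3.3. A standard error from edgeR is the fold change divided by the root of F. Ratios of 2 libraries have exact conditional binomial intervals. Other calculations used Python 3.11.15, scipy 1.17.1 and pandas 2.3.3. BL_1 and BL_2 are separate pools of embryos, and p-values measure the spread between these libraries only. Reads of different miRNAs were not corrected for how well each is ligated. Depth limits BL_1 most (113743 reads). All members were named. Other miRNAs named are the 3 nearest profiles of each member, the miR-15 and miR-16 family, the neighbouring X-linked cluster, marker lists and the hairpins next in arm difference, the last chosen after their values were seen. The members and lists were chosen with earlier results of these data known. Lists of epithelial, blood and skeletal muscle markers were also computed. The epithelial sum, of miR-205 and miR-429, was 4748 and 5777 RPM in BL_1 and BL_2. It was 1220, 789 and 0.776 RPM in the ES-like cells, PEBs and PFFs. Blood and skeletal muscle sums ranged from 1.96 to 87.4 RPM and from 191 to 2445 RPM over the libraries. Alternatives were other scalings, tools, filters, thresholds and pseudocounts, the largest precursor row and leaving out each library.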

Additional observations from a re-analysis of the deposited data

How the results depend on the processing

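Between embryos and cultured cells, edgeR called 33 miRNAs and 1 member. With total counts it called 57 and 3, with DESeq2 size factors 55 and 2, without the filter 51 and 2, and with the largest precursor row 42 and 2. DESeq2 called 100 and 5, and limma 70 and 3, 1 of them the rare miR-450c-3p, which had 0 reads in BL_1. Leaving out 1 library gave from 0 to 89 calls and from 0 to 3 members. No miRNA was called without BL_1 (64 at an unadjusted p under 0.05) or without BL_2 (58), where the lone BL library is assumed to vary like the cultured ones. The lowest other count was 3, without PEBs, and the highest 89, without PFFs. Between pluripotent and differentiated libraries, DESeq2 called 14 miRNAs, and leaving out 1 library gave from 0 to 16 calls and from 0 to 1 members, the highest without ES-like cells. In that comparison the log2 fold change of miR-503 turned from 0.42 to -0.11 without BL_2 and was 1.15 without BL_1. By the 2-fold rule, TMM gave 16 miRNAs for ES-like cells and 53 for PFFs, 6 of them members. DESeq2 size factors gave 50 and 6 for PFFs, and RPM without the most abundant miRNA 40 and 5. A 4-fold threshold gave 38, 11, 7 and 14 miRNAs, in the order BLs, ES-like, PEBs, PFFs, with 0 members for BLs and PFFs. A minimum of 10 reads gave 29 for BLs. Without either BL library, from 0 to 1 members passed for BLs, the lower without BL_1. The level of miR-424-5p in PEBs fell below the next cell type with TMM (0.992 times) and DESeq2 size factors (0.933 times), that of miR-503 in BLs without BL_2 (0.971 times, against 1.56 without BL_1), and that of miR-542-3p in PFFs with the largest precursor row (0.931 times). Members with both BL libraries above all cultured libraries numbered 2 with TMM, DESeq2 size factors or RPM without the most abundant miRNA, and from 1 to 2 without either BL library. Of these, the size factors and the RPM without the most abundant miRNA were chosen after seeing the data. The share of miR-424 and miR-503 fell by 60.6 to 71.3 percentage points from BLs to cultured cells without 1 library, settings chosen after seeing the data. Another member was the nearest profile for 0 members without BL_2 and for 4 without BL_1. With a minimum of 100 reads the arms of miR-424 could not be compared, because BL_1 had 56. The cause of these changes was not tested. No paired analysis was possible because only BLs have more than 1 library.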
